A study of Mus musculus with 12 samples.

Results

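The genes described here are 32 members of the endoplasmic reticulum (ER) folding machinery and of the unfolded protein response (UPR), chosen by name from the 32587 gene rows of the series. They comprise 8 chaperones of the HSP70 and HSP90 kind with their partners, 7 thiol and lectin folding factors, 8 genes of ER-associated degradation, 6 genes of stress sensing (4 sensors, the transcription factor gene Xbp1 and Wfs1) and 3 genes of protein entry and signal peptide cleavage. All members were found in the files, and 31 passed a filter of at least 1 TPM in at least 3 libraries, where TPM is the transcript level normalised for transcript length and library total. Derl3, which encodes a degradation channel protein, did not pass: it was listed at 0 in 6 libraries and at no more than 0.440 TPM in any.

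Secreted and membrane proteins enter the ER through the Sec61 channel, lose their signal peptide, and fold with the help of the HSP70 chaperone BiP (Hspa5), disulfide isomerases and the lectins calnexin and calreticulin. Proteins that do not fold are extracted and degraded through complexes built around Sel1l and Syvn1. When unfolded proteins accumulate, the sensors Ern1 (IRE1 alpha), Atf6 and Eif2ak3 (PERK) signal to the nucleus: Ern1 splices Xbp1 mRNA, Atf6 is cut to release a transcription factor, and Eif2ak3 slows translation and favours Atf4. In the intestinal epithelium this system serves mucus, enzyme, hormone and lipoprotein secretion.

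RNA was sequenced from wild-type (WT) mouse small-intestinal organoids, which are epithelial cultures grown from intestinal stem cells in a commercial growth medium, here labelled as duodenum. The 4 groups of 3 libraries each were treated with CA (cholic acid), CDCA (chenodeoxycholic acid), DCA (deoxycholic acid) or, as the control, the solvent DMSO (dimethyl sulfoxide). CA and CDCA are primary bile acids made by the liver, and DCA is made from CA by gut bacteria. CDCA and DCA each lack a hydroxyl group that CA carries, at different carbons. The labelled dose was 50 mmol/L for each acid, whose unit is doubtful because it is very high for a bile acid, and the labelled times were 2 days in one place and 96 hours in another. Whether a group's libraries are separate cultures or animals is not given, and p-values then measure only the spread between libraries, which may be technical.

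The files hold no counts, so the depth of each library is unknown. The duodenal markers Pdx1 and Gata4 were present at 8.16 to 11.2 and 76.8 to 105 TPM, and the ileal transporter gene Slc10a2 at no more than 0.822 TPM. The ileal bile acid binding protein gene Fabp6 averaged 240 TPM with CA, 372 with CDCA, 1411 with DCA and 1.53 with DMSO. Markers of plasma and other immune cells summed to 5.16 to 9.17 TPM over 12 genes, with 7 of them under 1 TPM in every library. Markers of mesenchyme, endothelium and glia summed to 7.47 to 12.02 TPM over 11 genes, with 5 under 1 TPM in every library and Cdh5 at 0 throughout. A pair of libraries stood apart from their groups in the sum of 12 stem and dividing cell markers. It was 782 TPM in CDCA replicate 3 against 1342 and 1194 TPM in the other CDCA libraries. In DMSO replicate 1 it was 1001 TPM, against 1361 and 1649 TPM in the other DMSO libraries. P4hb, the most abundant member, followed the same split, with 754 TPM in CDCA replicate 3 against 562 and 553 TPM, and 678 TPM in DMSO replicate 1 against 490 and 500 TPM. Counts are therefore given with and without CDCA replicate 3 and DMSO replicate 1. Leaving out the highest P4hb library of a group lowers its P4hb mean, so P4hb calls without them are not separate support. The Paneth marker sum set other libraries apart. It was 8880 TPM in DMSO replicate 3 against 5435 and 5038 TPM, and 8129 TPM in CDCA replicate 1 against 5654 and 5407 TPM.

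At the DMSO baseline the members covered a wide range of levels. P4hb, encoding protein disulfide isomerase, averaged 556 ± 106 TPM (SD, n = 3), followed by Calr with 273 ± 25.5, Hsp90b1 with 259 ± 26.0, Hspa5 with 228 ± 28.6, Pdia3 with 219 ± 20.9 and Canx with 201 ± 10.96 TPM. P4hb lay above all others in every DMSO library, while from Calr down to Canx the libraries of neighbours in this order overlapped. The sensors were at the other end, with Ern1 at 9.77 ± 1.36, Atf6 at 7.28 ± 0.421, Eif2ak3 at 5.73 ± 0.534 and Ern2 at 4.90 ± 1.10 TPM. The members' TPM summed to 3151 to 3488 with CA, 2937 to 3296 with CDCA, 3623 to 3775 with DCA and 2605 to 3102 with DMSO. The DCA sums lay above those of the other 9 libraries. P4hb made up 28.6 ± 0.677% of the sum with DCA and 19.4 ± 2.20% with DMSO (SD, n = 3 each). Without P4hb the sums were 2488 to 2733 TPM with CA, 2384 to 2564 with CDCA, 2614 to 2693 with DCA and 2115 to 2424 with DMSO. The DCA sums then overlapped those with CA and still lay above those with CDCA and DMSO.

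The median SD of log2(TPM + 1) within a group was 0.09 over the 31 members, against 0.16 over the 11952 tested genes. The 2 sets were not matched for level, so the difference cannot be read as a trait of the members. Pdia6 varied least (0.04) and Sdf2l1 most (0.23).

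**Figure D1:**
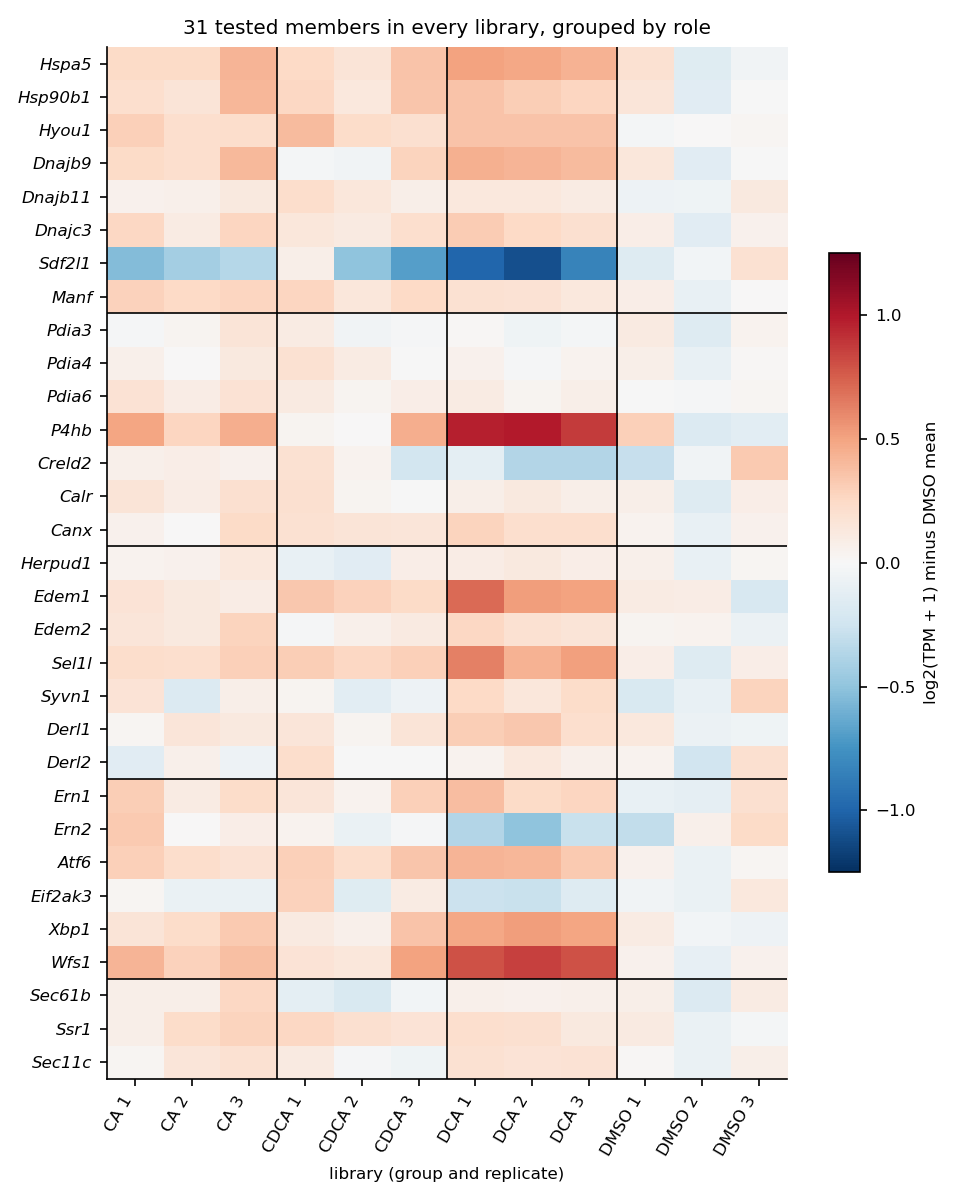
Level of the 31 tested members in each of the 12 libraries, as log2(TPM + 1) minus the mean of the DMSO libraries; rows are grouped by role and columns by group. P4hb and Wfs1 are the reddest rows in the 3 DCA libraries and Sdf2l1 the bluest.

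Many ER chaperone genes carry an ER stress response element (ERSE) near their start, which ATF6 and XBP1 bind together with NF-Y. It is read here as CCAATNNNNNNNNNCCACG on either strand. Promoters from 250 bases before to 50 bases after the start came from RefSeq (GRCm38.p6, another build than that of the files), and 26 of the 32 members matched by symbol. The ERSE was present in 39 of 32851 promoters (0.119%) and in 9 of these 26 members: Calr, Canx, Creld2, Derl3, Dnajc3, Hsp90b1, Hspa5, Pdia6 and Syvn1. The upstream 250 bases of Hspa5, the gene in which the element is best known, lie at chr2:34771840-34772089 on the plus strand, with the ends of the ERSE in capitals, 65 bases before the start.
Hspa5: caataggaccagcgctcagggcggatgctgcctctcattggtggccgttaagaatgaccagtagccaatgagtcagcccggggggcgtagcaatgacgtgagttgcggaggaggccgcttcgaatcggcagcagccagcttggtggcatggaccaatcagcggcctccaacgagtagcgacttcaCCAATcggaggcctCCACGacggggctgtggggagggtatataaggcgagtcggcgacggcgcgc
The other matches in tested members are shown with 10 bases on each side so that the conserved ends and the variable 9-base middle can be compared; in Calr, Creld2 and the second Hsp90b1 match shown the element runs on the opposite strand and reads CGTGG, then ATTGG.
Hsp90b1, 212 bases before the start: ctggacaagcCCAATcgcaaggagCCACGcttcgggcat
Hsp90b1, 107 bases before the start: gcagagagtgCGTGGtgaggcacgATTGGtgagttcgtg
Canx: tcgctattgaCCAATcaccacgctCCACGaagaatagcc
Dnajc3: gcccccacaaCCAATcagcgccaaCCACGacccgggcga
Pdia6: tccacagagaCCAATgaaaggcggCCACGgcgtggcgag
Syvn1: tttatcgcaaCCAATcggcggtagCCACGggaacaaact
Calr: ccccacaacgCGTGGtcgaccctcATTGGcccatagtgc
Creld2: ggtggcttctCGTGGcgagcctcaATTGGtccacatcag
A shorter relative, ERSE-II (ATTGGNCCACG, sought like the other motifs on both strands), was present in 12 promoters (0.0365%), among them those of Herpud1 and Dnajb11. In Herpud1, which encodes a scaffold of the degradation complex, it starts 52 bases before the start.
Herpud1: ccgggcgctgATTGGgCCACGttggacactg
The motif TGACGTGG, bound by spliced XBP1, was present in 222 promoters (0.676%) and in 0 of the 26 members. P4hb, the member with the largest increase below, held neither ERSE nor ERSE-II; its upstream 250 bases, at chr11:120573254-120573503 on the minus strand, are shown with their 1 CCACG in capitals. These letters also form one end of both elements and, on the opposite strand, part of TGACGTGG. Over the full promoter window, 50 bases longer than the stretch shown, they were found in 32.8% of promoters and in 21 of the 26 members.
P4hb: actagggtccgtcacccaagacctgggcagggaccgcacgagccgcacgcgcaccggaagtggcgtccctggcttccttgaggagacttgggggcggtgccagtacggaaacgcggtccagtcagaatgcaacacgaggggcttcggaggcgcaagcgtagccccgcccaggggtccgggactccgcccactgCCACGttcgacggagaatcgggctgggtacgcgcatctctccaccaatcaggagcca

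Members were first compared between DCA and DMSO. With limma on log2(TPM + 1) and Benjamini-Hochberg adjustment over all tested genes at 0.05, 13 of the 31 members rose and 1 fell, against 18.8% of all tested genes higher and 19.2% lower (38% in all). The members that rose were the chaperone genes Hspa5, Hsp90b1, Hyou1, Dnajb9 and Dnajc3, the folding factor genes P4hb and Canx, the degradation genes Edem1, Sel1l and Derl1, and Atf6, Xbp1 and Wfs1. Sdf2l1 fell. DCA libraries lay above all DMSO libraries for 20 members, where 24.2% of all genes did so, and below for 2, where 26% did. The median log2 fold change was 0.20 over the members and -0.02 over all genes tested. With mitochondrial and rRNA rows left out, the median was 0.11 over the members and -0.11 over all genes, and the split of the members was 11 higher and 4 lower. Without CDCA replicate 3 and DMSO replicate 1, 15 members were higher and 3 lower. DMSO replicate 1 had the highest DMSO value of Manf and Ssr1 and the lowest of Creld2 and Ern2. Leaving it out widens their differences, so calls on these members without it are not separate support. The same holds for Ern1, whose highest DMSO value was in DMSO replicate 3, without that library. In bulk RNA, a change in the number of cells of a type and a change in RNA per cell cannot be told apart.

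Among the chaperones, 5 of 8 rose with DCA and 1 fell, against 18.8% of all tested genes higher and 19.2% lower. Hspa5, encoding BiP, had 321, 317 and 308 TPM with DCA, against 260, 204 and 221 TPM with DMSO. The 3 DCA libraries were the highest of all 12. The log2 fold change was 0.47 ± 0.09 (SE), 1.39-fold, with a limma adjusted p of 0.00150. Hyou1, a nucleotide exchange factor of BiP, had 58.1, 58.1 and 58.1 TPM with DCA, against 44.4, 45.2 and 46.0 TPM with DMSO. The libraries of each group were nearly alike and the groups lay apart, by 0.36 ± 0.07 on the log2 scale (limma adjusted p = 0.00219).

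Sdf2l1, which works with BiP and its J-domain partner Dnajb11, moved the other way. It had 7.27, 6.68 and 8.21 TPM with DCA, against 13.7, 15.0 and 17.7 TPM with DMSO. The DCA libraries were the lowest of all 12, and the log2 fold change was -0.97 ± 0.17 (limma adjusted p = 0.000859). Dnajb11 itself had a log2 fold change of 0.12 (95% interval -0.04 to 0.29). The J-domain genes Dnajb9 and Dnajc3, which steer BiP to misfolded clients, rose by 0.42 and 0.25, and Hsp90b1, the ER HSP90, rose by 0.31 (limma adjusted p = 0.0101, 0.0423 and 0.0161). These 3 were named after their values were seen. The call on Dnajc3 was lost in 9 of 20 other settings, among them without each DCA library and without DMSO replicate 2, with adjusted p up to 0.148. The call on Hsp90b1 was lost without DCA replicate 1 or DMSO replicate 2 (adjusted p up to 0.0679). Manf, an ER protein that binds BiP and can be secreted, had 136, 135 and 131 TPM with DCA and 126, 112 and 119 TPM with DMSO. Its groups did not overlap, and its log2 fold change of 0.17 ± 0.07 missed the threshold (limma adjusted p = 0.0653), though not without DMSO replicate 1.

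The thiol and lectin folding factors divided. P4hb, which forms disulfide bonds and is also a subunit of prolyl hydroxylase and of the triglyceride transfer complex, had 1083, 1092 and 1009 TPM with DCA, against 678, 490 and 500 TPM with DMSO. Every DCA library stood above the other 9 libraries, of which the highest had 772 TPM. The change, 0.95 ± 0.13 or 1.93-fold, was the largest increase among the members (limma adjusted p = 0.000251). Canx, the membrane lectin calnexin, had 244, 232 and 232 TPM with DCA, against 207, 188 and 208 TPM with DMSO. Its rise of 0.23 ± 0.07 was small (limma adjusted p = 0.0239), and the call was lost in 5 of 20 other settings: without each DCA library in turn, without DMSO replicate 2 and without mitochondrial and rRNA rows (adjusted p up to 0.0914). Pdia3, a glycoprotein disulfide isomerase, had 221, 210.0 and 214 TPM with DCA and 236, 196 and 225 TPM with DMSO, with overlap. Pdia6, another isomerase, had 125, 119.2 and 122.8 TPM with DCA and 116, 115 and 118.7 TPM with DMSO, just without overlap. Neither these genes nor Pdia4 passed the test: log2 fold changes were -0.02 for Pdia3, 0.03 for Pdia4 and 0.07 for Pdia6, with 95% intervals from -0.20 to 0.15, -0.14 to 0.19 and -0.06 to 0.20. Calr, the soluble lectin calreticulin, was at 0.09 (-0.08 to 0.26). Creld2, an ER stress-inducible thiol factor, had 13.5, 11.2 and 11.2 TPM with DCA and 11.9, 14.3 and 18.8 TPM with DMSO. The groups overlapped, with a pair of DCA libraries below all DMSO libraries, and the change of -0.29 ± 0.15 missed the threshold (limma adjusted p = 0.153). It was called lower in 3 of 20 other settings, among them without DMSO replicate 1, with adjusted p down to 0.0142.

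In ER-associated degradation, 3 of 7 tested members rose with DCA and 0 fell, against 18.8% of all tested genes higher and 19.2% lower. Log2 fold changes were above 0 for each of the 7, where the median over all tested genes was -0.02. Edem1, which hands misfolded glycoproteins to the degradation complex, had 21.9, 19.1 and 18.8 TPM with DCA, against 14.0, 13.9 and 11.2 TPM with DMSO. Sel1l, the adaptor that carries substrates to the ubiquitin ligase Syvn1, had 21.5, 18.6 and 19.7 TPM with DCA, against 14.3, 11.9 and 14.4 TPM with DMSO. For both genes the DCA libraries were the highest of the 12. The increases were 0.58 ± 0.10 for Edem1 and 0.53 ± 0.09 for Sel1l (limma adjusted p = 0.000828 and 0.000933). Derl1, a channel protein, had 59.8, 60.9 and 55.8 TPM with DCA and 52.5, 45.5 and 46.2 TPM with DMSO, an increase of 0.29 ± 0.08 (limma adjusted p = 0.0138) that was not called without DCA replicate 1 or 2 (adjusted p up to 0.0614). Edem2, which trims mannose from misfolded glycoproteins, had 30.8, 29.3 and 28.7 TPM with DCA and 26.2, 26.3 and 24.2 TPM with DMSO. Its groups did not overlap, but the change of 0.20 ± 0.08 missed the threshold (limma adjusted p = 0.0627). Herpud1, Syvn1 and Derl2 had log2 fold changes of 0.10, 0.21 and 0.08, each with a 95% interval that included 0.

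Among the stress genes, Xbp1, Wfs1 and Atf6 rose, and the other sensors did not pass the test. Xbp1 had 211, 216 and 211 TPM with DCA, against 161, 146 and 143 TPM with DMSO, an increase of 0.50 ± 0.08 (limma adjusted p = 0.000684). The DCA libraries were the highest of the 12. These are levels of the whole gene: the spliced and unspliced forms of Xbp1 were not analysed here. Wfs1, encoding wolframin, an ER membrane protein of calcium handling, had 14.1, 14.7 and 14.1 TPM with DCA, against 8.02, 7.07 and 8.02 TPM with DMSO. Its change of 0.82 ± 0.11, 1.76-fold, had the smallest adjusted p among the members (0.000180, limma), and again every DCA library was above the other 9. Atf6 had 10.1, 10.04 and 9.39 TPM with DCA, against 7.61, 6.80 and 7.42 TPM with DMSO, an increase of 0.39 ± 0.09 (limma adjusted p = 0.00426).

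Ern1 had 13.001, 11.7 and 11.9 TPM with DCA and 9.04, 8.94 and 11.3 TPM with DMSO. The groups just did not overlap, and the change of 0.30 ± 0.11 missed the threshold narrowly (limma adjusted p = 0.0507), with a call in 6 of 20 other settings, among them without CDCA replicate 3 or DMSO replicate 3. Its paralogue Ern2 (IRE1 beta), known from mucus-producing epithelium, had 3.53, 3.11 and 3.82 TPM with DCA and 3.72, 5.08 and 5.91 TPM with DMSO. A single DMSO library lay among the DCA values, and the change of -0.38 ± 0.15 had an adjusted p of 0.0540 (limma), with a call in 5 of 20 other settings, among them without DMSO replicate 1. Eif2ak3 had 4.58, 4.56 and 5.00 TPM with DCA and 5.51, 5.34 and 6.34 TPM with DMSO. Its DCA libraries were the lowest of the 12, but the change of -0.23 ± 0.12 missed the threshold (limma adjusted p = 0.147), with a call when mitochondrial and rRNA rows were left out (adjusted p = 0.0315).

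The 3 entry genes did not pass the test with DCA. Sec61b, a subunit of the entry channel, had 196, 195 and 196 TPM with DCA and 197, 166 and 201 TPM with DMSO. Ssr1, of the channel's associated complex, had 52.6, 52.5 and 49.6 TPM with DCA and 49.1, 42.8 and 44.7 TPM with DMSO. Sec11c, of the signal peptidase, had 53.6, 52.9 and 53.4 TPM with DCA and 47.2, 44.1 and 49.4 TPM with DMSO. The groups overlapped for Sec61b and did not for Ssr1 and Sec11c, and the log2 fold changes were 0.06, 0.18 and 0.18 (the lowest limma adjusted p was 0.0861, for Sec11c). Ssr1 was called higher without DMSO replicate 1, and Sec11c with median-ratio scaling.

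**Figure D2:**
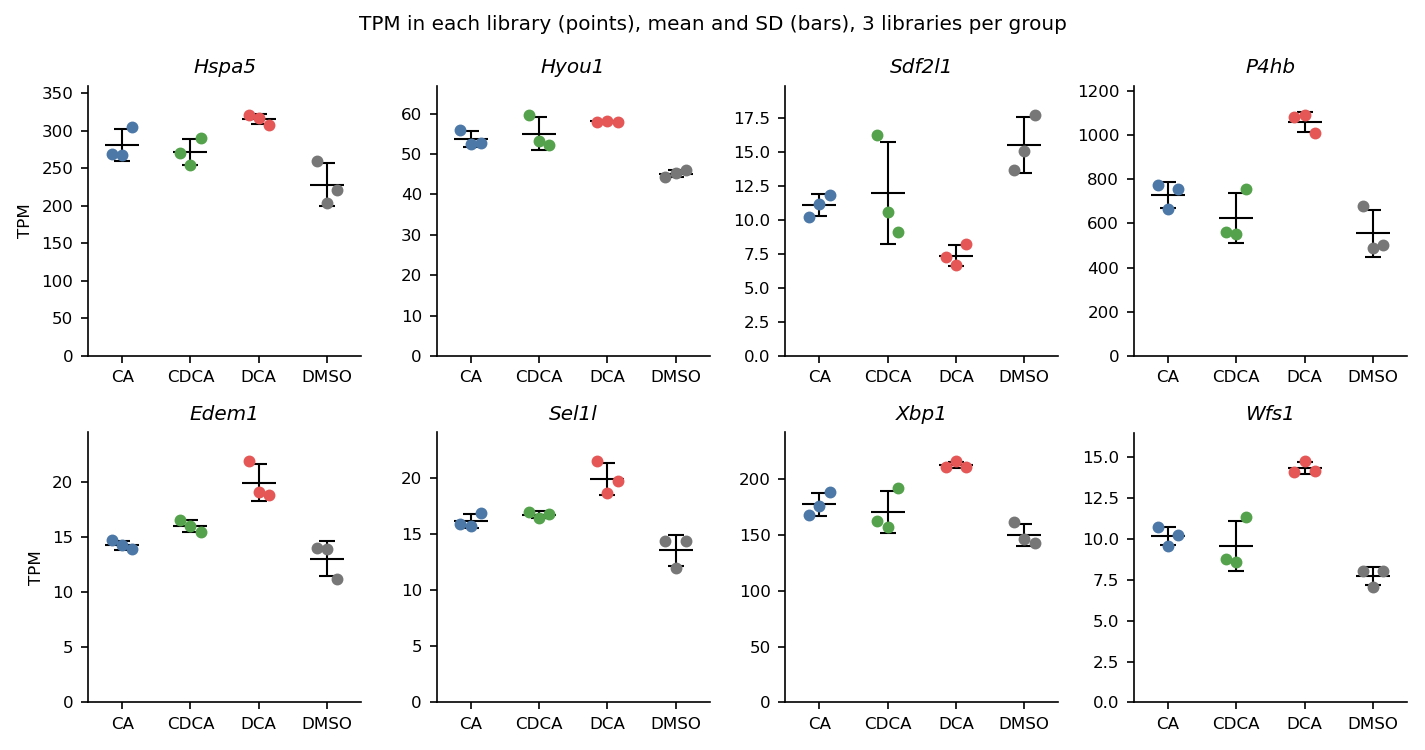
TPM of 8 members in every library (points), with mean and SD, for CA, CDCA, DCA and DMSO; each axis starts at 0. The DCA points of Hspa5, P4hb, Edem1, Sel1l, Xbp1 and Wfs1 lie above all others and those of Sdf2l1 below all others.

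Counted over all 12 libraries, the 3 DCA libraries were above the other 9 for 7 members (Hspa5, P4hb, Edem1, Sel1l, Derl1, Xbp1 and Wfs1), where 12.8% of all tested genes showed this. They were below the other 9 for 2 members (Sdf2l1 and Eif2ak3), where 17.9% of all tested genes did. A moderated F test over the 4 groups called 11 of the 31 members (Hspa5, Hyou1, Dnajb9, Sdf2l1, Manf, P4hb, Edem1, Sel1l, Atf6, Xbp1 and Wfs1), against 28.5% of all tested genes.

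The members with an ERSE did not move as a block. The counts that follow stand against 18.8% of all tested genes higher and 19.2% lower with DCA. Of the 8 that were tested, 4 rose with DCA (Hspa5, Hsp90b1, Canx and Dnajc3) and 0 fell, with a median log2 fold change of 0.22. The calls on Hsp90b1, Canx and Dnajc3 were lost in some other settings, as given above. Pdia6, Calr, Syvn1 and Creld2, whose elements are printed above, did not pass the test. Of the 15 members with a promoter but neither ERSE nor ERSE-II, 6 rose (P4hb, Wfs1, Edem1, Sel1l, Xbp1 and Dnajb9) and Sdf2l1 fell, with a median of 0.20. Dnajb11 and Herpud1, with ERSE-II, did not pass. Outside the members, 8 tested genes held an ERSE, of which 1 rose (Ero1b, 0.59) and 2 fell, a split near the shares of all tested genes. A match is a run of letters and says nothing of whether a factor was bound.

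With CA, 0 of the 31 members passed the adjusted threshold against DMSO in limma, where 0.577% of all genes did. At an unadjusted p under 0.05 there were 15 members, 14 higher and 1 lower, against 14.8% of all genes. The median log2 fold change was 0.15 over the members and 0.03 over all genes. Hspa5 had 269, 268 and 305 TPM with CA, against 260, 204 and 221 TPM with DMSO, a log2 fold change of 0.30 (95% interval 0.11 to 0.50; limma adjusted p = 0.152). Manf had the smallest adjusted p (0.0948, limma), with 145, 142 and 143 TPM with CA against 126, 112 and 119 TPM with DMSO. In both genes the CA libraries lay above all DMSO libraries. Sdf2l1 had 10.3, 11.2 and 11.8 TPM with CA against 13.7, 15.0 and 17.7 TPM with DMSO, also without overlap, at -0.44 (-0.81 to -0.07). In all, CA libraries lay above DMSO libraries for 13 members, where 11.8% of all genes did so, and below for 1, where 5.21% did. Without CDCA replicate 3 and DMSO replicate 1, limma called 7 members higher with CA (Hspa5, Hsp90b1, Dnajb9, Manf, P4hb, Xbp1 and Wfs1), and without DMSO replicate 1 alone it called Hspa5 and P4hb. DMSO replicate 1 had the highest DMSO value for each of these 7 members, so leaving it out lowers their DMSO means.

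With CDCA, 0 of 31 members passed the adjusted threshold against DMSO in limma (0.594% of all genes), and 0 did so in any of 20 other settings. At an unadjusted p under 0.05 there were 11 members, 10 of them higher, against 9.77% of all genes, and the median log2 fold change was 0.11. Hyou1 had 59.7, 53.3 and 52.2 TPM with CDCA, against 44.4, 45.2 and 46.0 TPM with DMSO. The groups did not overlap, and the log2 fold change was 0.28 (95% interval 0.12 to 0.43; limma adjusted p = 0.146). Sel1l had 17.0, 16.4 and 16.8 TPM with CDCA, against 14.3, 11.9 and 14.4 TPM with DMSO, at 0.29 (0.09 to 0.49). Sdf2l1 had 16.3, 10.6 and 9.15 TPM with CDCA, so that its first library lay among the DMSO values of 13.7, 15.0 and 17.7 TPM. CDCA libraries lay above DMSO libraries for 10 members, where 6.97% of all genes did so, and below for 0, where 3.03% did. The comparisons of the 3 acids with DMSO share the same DMSO libraries, so their values are not independent of each other.

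**Figure D3:**
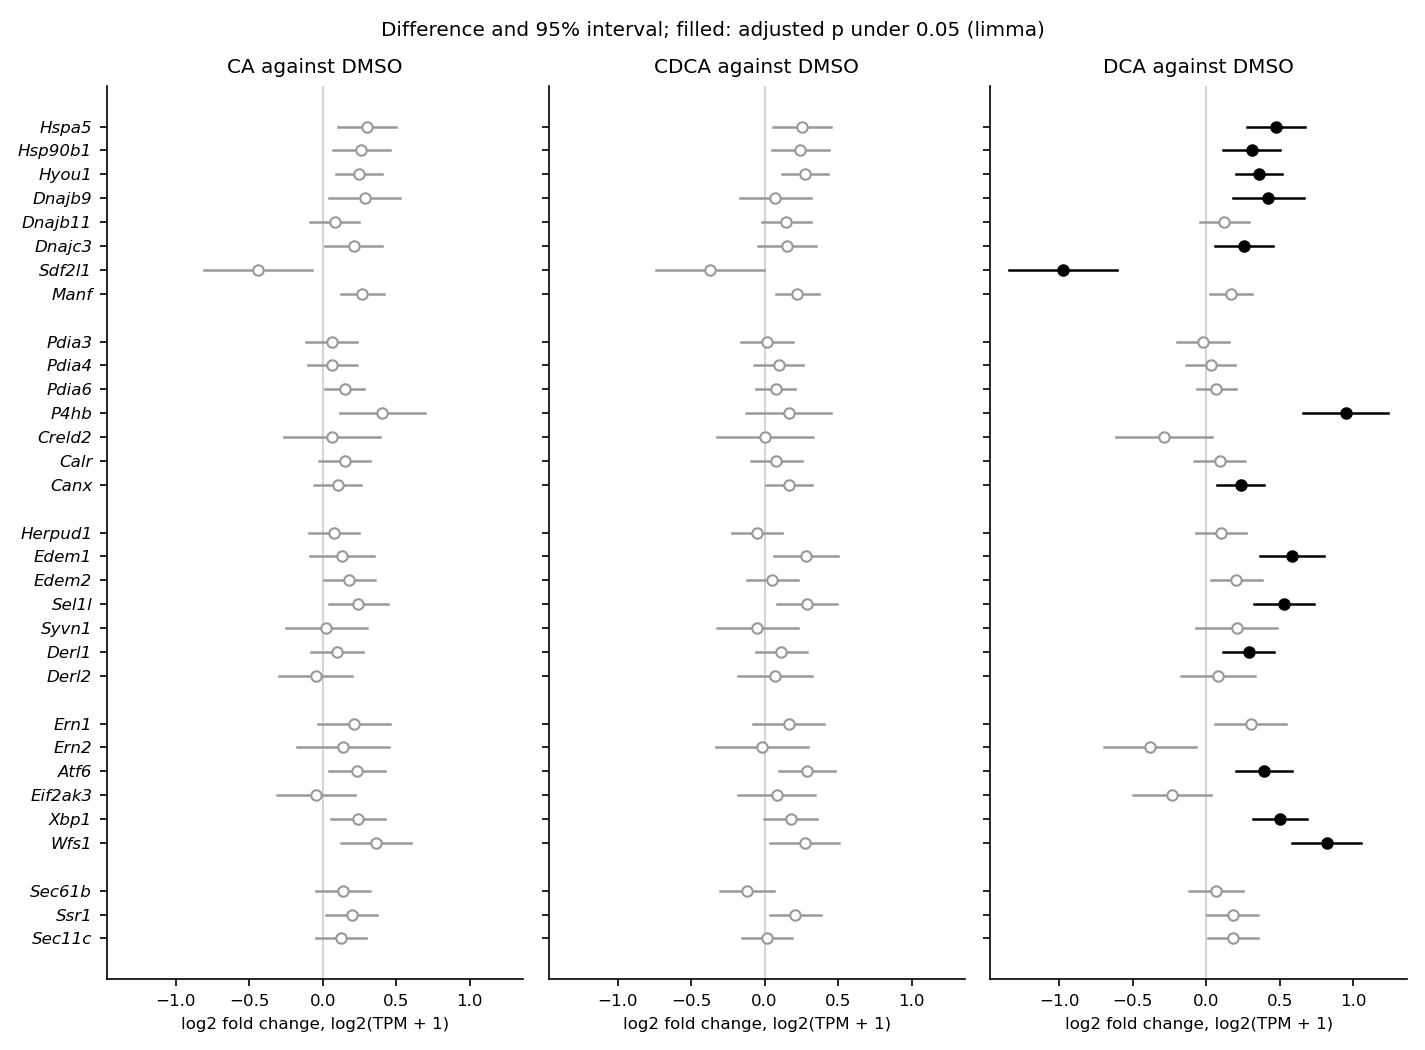
Log2 fold change of the 31 tested members against DMSO for CA, CDCA and DCA, with 95% intervals; filled points have a limma adjusted p under 0.05. Filled points occur with DCA alone, 13 to the right of 0 and Sdf2l1 to the left.

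The acids were also compared with each other at the same labelled dose, in 3 pairs, with adjustment over all genes in each pair. DCA against CA gave 4 called members, 12.9% of the 31 against 14.7% of all genes. Of these, 3 were higher (9.68% against 5.79%) and 1 lower (3.23% against 8.94%). DCA against CDCA gave 6, or 19.4% against 27.8% of all genes, with 5 higher (16.1% against 12.8%) and 1 lower (3.23% against 15%). In both pairs the share of members called was below that of all genes. CDCA against CA gave 0 in limma (0.0335% of all genes), with 1 member, Sec61b, at an unadjusted p under 0.05, where 7.2% of all genes were. P4hb, Edem1 and Wfs1 were called higher with DCA in both pairs. The DCA libraries lay above each CA and CDCA library for all 3 genes.

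P4hb had 1083, 1092 and 1009 TPM with DCA, against 772, 663 and 754 TPM with CA and 562, 553 and 754 TPM with CDCA. DCA exceeded CA by 0.54 ± 0.13 and CDCA by 0.78 ± 0.13 on the log2 scale (limma adjusted p = 0.0204 and 0.00183). Wfs1 had 14.1, 14.7 and 14.1 TPM with DCA, against 10.7, 9.59 and 10.3 TPM with CA and 8.79, 8.57 and 11.4 TPM with CDCA. It differed by 0.46 ± 0.11 and 0.55 ± 0.11 (limma adjusted p = 0.0180 and 0.00364). Edem1 had 21.9, 19.1 and 18.8 TPM with DCA, against 14.7, 14.2 and 13.9 TPM with CA and 16.6, 16.02 and 15.4 TPM with CDCA. Its differences were 0.45 ± 0.10 and 0.30 ± 0.10 (limma adjusted p = 0.0133 and 0.0435).

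The remaining calls belonged to a single pair each. Against CDCA, DCA was higher in Xbp1 by 0.32 ± 0.08 and in Dnajb9 by 0.35 ± 0.11, and Sdf2l1 was lower, with a difference of -0.60 ± 0.17 (limma adjusted p = 0.0129, 0.0336 and 0.0199). Against CA, the same genes stood at 0.26, 0.14 and -0.53, with adjusted p of 0.0548, 0.443 and 0.0533. Ern2 was called lower with DCA than with CA: it had 3.53, 3.11 and 3.82 TPM with DCA and 6.31, 4.85 and 5.17 TPM with CA, a difference of -0.52 ± 0.15 (limma adjusted p = 0.0327). Against CDCA, with 5.00, 4.51 and 4.77 TPM, the difference in Ern2 was -0.36 ± 0.15 (adjusted p = 0.0805). A call in one pair and not in the other does not show that the pairs differ, which was not tested.

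Of these calls, P4hb and Wfs1 against CDCA held in all 20 other settings. Each of the 4 calls against CA was lost in some of them: Ern2 in 8, P4hb in 5, Wfs1 in 4 and Edem1 in 2, with adjusted p up to 0.126, 0.0881, 0.0776 and 0.0681. Against CDCA, Edem1 was lost in 12, Dnajb9 in 5, and Sdf2l1 and Xbp1 in 3 each. These losses came mostly with 1 CA, CDCA or DCA library left out. The number called against CA was 0 without CA replicate 2 or without DCA replicate 1, 1 without CA replicate 3 or without DCA replicate 2, and 7 without DMSO replicate 3. The number called against CDCA was 2 without CDCA replicate 1 or without DCA replicate 2, and 3 without DCA replicate 1. With mitochondrial and rRNA rows left out, the split against CDCA was 4 higher and 3 lower, where it was 5 and 1 before. Without CDCA replicate 3 and DMSO replicate 1, 8 members were called against CA and 8 against CDCA.

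Between CDCA and CA no member passed, and the intervals bound the difference. The log2 difference was -0.05 for Hspa5 (95% interval -0.24 to 0.15), 0.03 for Hyou1 (-0.12 to 0.19), -0.06 for Xbp1 (-0.24 to 0.12) and -0.24 for P4hb (-0.53 to 0.05). Sec61b had 172, 164 and 183 TPM with CDCA and 198, 197 and 225 TPM with CA, without overlap, at -0.25 (-0.44 to -0.07; limma adjusted p = 0.557). Edem1 was the one member for which every CDCA library lay above every CA library, and Edem2 and Sec61b lay below; 4.19% and 6.47% of all genes did so. Without CDCA replicate 3 and DMSO replicate 1, P4hb was called lower with CDCA, a setting that leaves out the highest of its CDCA values.

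**Figure D4:**
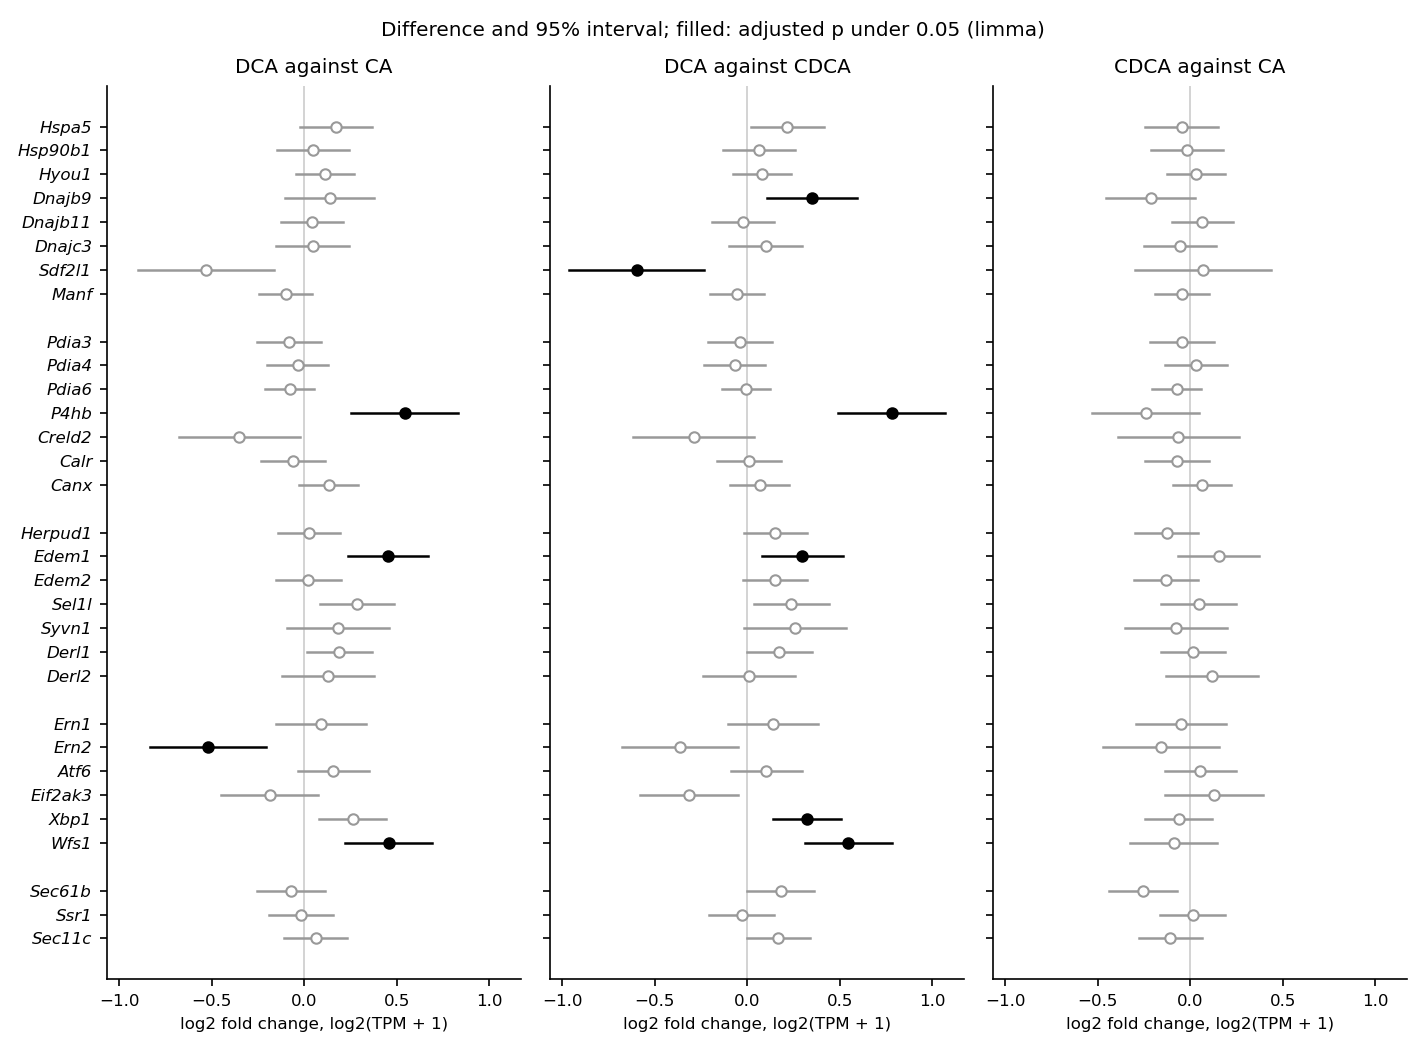
Log2 fold change of the 31 tested members between acids (DCA against CA, DCA against CDCA, CDCA against CA), with 95% intervals; filled points have a limma adjusted p under 0.05. P4hb, Edem1 and Wfs1 are filled in both DCA panels, and no point is filled for CDCA against CA.

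Other genes of the same pathways were read from lists of ER and stress genes. Their counts stand against 18.8% of all tested genes higher and 19.2% lower with DCA, and those of the folding and redox list and of the UPR list lie near or below those shares. Among 21 genes of the translocon, signal peptidase and glycosylation, 7 rose with DCA against DMSO and 0 fell, with a median of 0.09. Spcs2, a signal peptidase subunit, averaged 316 ± 15.8 TPM with DCA and 203 ± 20.4 TPM with DMSO, and Ssr3 and Sec61a1 rose by 0.53 and 0.35. Among 21 folding and redox genes, 4 rose and 3 fell, with a median of 0.02. Ero1a, the oxidase that recharges P4hb, averaged 253 ± 11.8 TPM with DCA and 128 ± 9.12 TPM with DMSO, a rise of 0.98. Prdx4, an ER peroxiredoxin, averaged 27.0 ± 1.89 TPM with DCA and 46.1 ± 2.13 TPM with DMSO, a log2 fold change of -0.75. Of 20 further degradation genes, 6 rose and 2 fell, with Fam8a1, a partner of Syvn1, at 0.77. Of 13 genes in the UPR list, which holds more than sensors and processing enzymes, 2 rose and 2 fell. Those that rose were Sec24d (1.05), a coat protein of ER exit vesicles, and Tmbim6 (0.54), and those that fell were Creb3l1 (-0.38) and Traf2 (-0.30).

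The list of PERK and ATF4 output genes had calls with each acid. Of 23 genes, of which Nupr1 is also in the Paneth list, 10 rose and 5 fell with DCA, 4 rose and 0 fell with CDCA, and 2 rose and 0 fell with CA, against DMSO. With DCA, 18.8% of all tested genes were higher and 19.2% lower, so the share of the list that fell was near that of all genes. In either direction, 0.594% of all tested genes were called with CDCA and 0.577% with CA. Ddit3, encoding the stress factor CHOP, averaged 38.6 ± 1.92 TPM with CA, 46.5 ± 0.986 with CDCA, 59.1 ± 7.58 with DCA and 26.8 ± 1.28 TPM with DMSO (SD, n = 3 each). Its increases over DMSO were 0.51, 0.78 and 1.11 on the log2 scale for CA, CDCA and DCA (limma adjusted p under the threshold in each). Vldlr rose with all 3 acids as well, by 0.43, 0.64 and 0.75, and Trib3 rose with CDCA and DCA, by 0.79 and 0.76. Slc7a5, an amino acid transporter, fell by 0.54 with DCA on the log2 scale. CA and CDCA therefore each had called genes in this list and 0 among the 31 members. CDCA also had 1 call in the folding and redox list (Qsox1, 0.41 against DMSO, limma adjusted p = 0.0439) and 0 in the other ER lists. The difference between the lists was not tested.

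Markers of cell types moved along with the members in the DCA libraries. Their counts stand against 18.8% of all tested genes higher and 19.2% lower with DCA against DMSO. Of 14 absorptive enterocyte markers, 13 rose with DCA against DMSO, with a median of 1.30, and their TPM summed to 7814 to 10107 with DCA and 2904 to 4660 with DMSO. Of 12 stem and dividing cell markers, 12 fell, with a median of -1.17, and sums of 423 to 460 TPM with DCA and 1001 to 1649 TPM with DMSO. Mttp, the partner of P4hb in the triglyceride transfer complex and one of the enterocyte markers, averaged 418 ± 33.9 TPM with DCA and 164 ± 44.0 TPM with DMSO. Transcripts of both subunits of that complex were higher with DCA, and the complex itself was not measured.

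Secretory cell markers were lower in the same libraries. With DCA, 7 of 13 tested goblet cell markers, 9 of 13 Paneth cell markers, 8 of 12 enteroendocrine markers and 5 of 7 tuft cell markers fell against DMSO, and 0 rose. Among all tested genes 19.2% fell and 18.8% rose. Goblet marker sums were 3778 to 4171 TPM with DCA and 4203 to 5432 TPM with DMSO. Paneth marker sums were 3600 to 4228 TPM with DCA and 5038, 5435 and 8880 TPM with DMSO, the highest in replicate 3. Against CA, where Ern2 was called lower with DCA, 12 of 13 goblet cell markers fell as well, as did 8.94% of all tested genes. The goblet sum was 3778 to 4171 TPM with DCA and 5548 to 6255 TPM with CA. With CA, enterocyte markers had a median log2 fold change of 0.65 against DMSO and with CDCA of -0.04, with 0 called in either. The share of mitochondrial transcripts in the TPM total was 11.8 ± 0.814% with DCA and 17.2 ± 2.74% with DMSO. The part of these cell type and composition differences in the changes of the members was not tested.

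**Figure D5:**
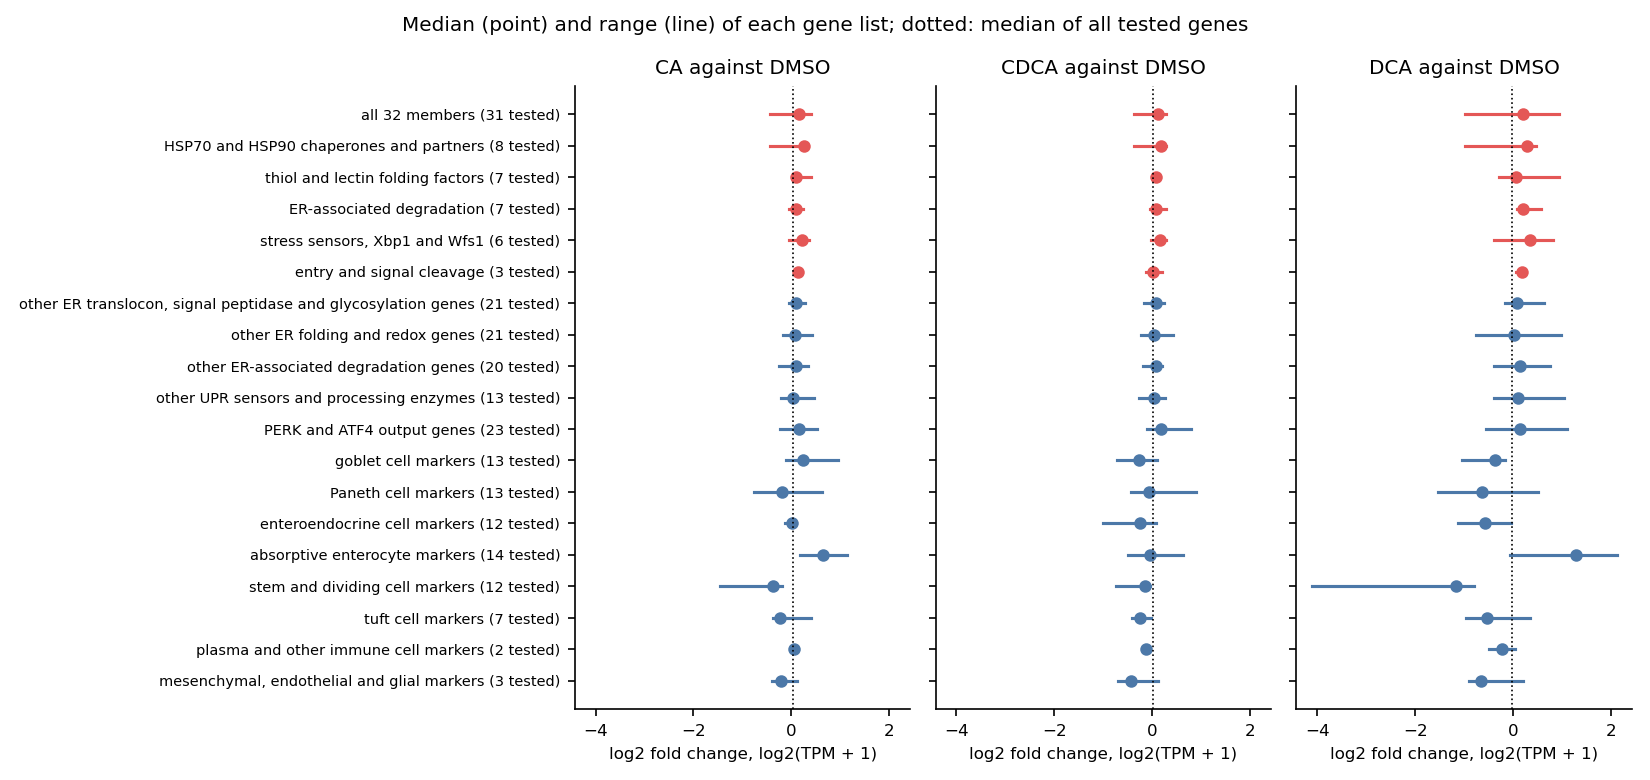
Median (point) and range (line) of the log2 fold change against DMSO for the members and their roles (red) and for other ER, stress and cell marker lists (blue), with CA, CDCA and DCA; the dotted line is the median of all tested genes. With DCA the enterocyte markers lie farthest to the right, with a median of 1.30, and the stem and dividing cell markers farthest to the left, with a median of -1.17.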

How the data were processed

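For every library the authors deposited a table of TPM values, with 32587 rows named by gene symbol. That the unit is TPM was read from the values. The submitters' processing notes name Salmon 1.8.0 and genome build GRCm39. Which annotation they used is not given in the sources used here. Read depth cannot be recovered from TPM, which leaves the error of a single value unknown, and TPM values are shares of a total (889156 to 936841 TPM in these rows).

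After a filter of at least 1 TPM in 3 or more libraries, 11952 rows were fitted on the scale of log2(TPM + 1) with limma 3.58.1 in R 4.3.3. The model had 4 group means over 12 libraries, a mean-variance trend and robust moderation. Tests were two-sided, and the p-values of each of the 6 comparisons were adjusted by Benjamini-Hochberg, with a threshold of 0.05. The plan named a count model for counts and limma for normalized values, so limma was used. The script was tested on simulated data. Fold changes on this scale understate those of low genes.

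The members and lists were chosen with earlier results of these data known. Of the other 198 list genes, 1 was not found, and markers of gut region were added later. Values per library, for the groups compared, are given for the 4 members with the smallest F test p in each role, for any that moved against most of its role, and for Hspa5, Xbp1 and the sensors. From other lists, the 4 genes with the smallest F test p could be named, beside those counted by name. Alternatives were a pseudocount of 0.1, no filter, scaling by median ratios, a replicate block, only the 6 libraries compared, no trend or robust moderation, 13 mitochondrial and 2 rRNA rows left out, CDCA replicate 3 and DMSO replicate 1 left out, and each library left out in turn. Promoters were searched in Python 3.11.15.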

Additional observations from a re-analysis of the deposited data

How the results depend on the processing

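The calls on Atf6, Dnajb9, Edem1, Hspa5, Hyou1, P4hb, Sdf2l1, Sel1l, Wfs1 and Xbp1 in DCA against DMSO held in all 20 other settings, and no direction of a call was reversed in any comparison. Calls on Canx, Derl1, Dnajc3 and Hsp90b1 were lost in 5, 2, 9 and 2 of them. The number of members called in DCA against DMSO was 10 to 18 with 1 library left out in turn and 20 with median-ratio scaling. In CA against DMSO it was 0 to 2 with 1 library left out, and 7 without CDCA replicate 3 and DMSO replicate 1. In CDCA against CA it was 1 without those 2 libraries. In DCA against CA it was 0 to 7 with 1 library left out, 2 with no filter, 8 with only the 6 libraries compared and 8 without those 2 libraries. In DCA against CDCA it was 2 to 8 with 1 library left out and 11 with median-ratio scaling. The cause of these differences was not tested. Over all genes, calls in CA against DMSO numbered 69 as reported and 2 to 964 in other settings, and in CDCA against CA 4 and 2 to 439, the most in both without CDCA replicate 3 and DMSO replicate 1.

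No pairing of the libraries by replicate number was seen. Correlations of same-numbered libraries' deviations were -0.38 to 0.11 over 18 pairs, and 2 of 12 libraries correlated best with their own number. With 3 libraries per group, these correlations cannot decide whether same-numbered libraries shared a culture or batch. With the replicate block, 15 members were called in DCA against DMSO, 3 in DCA against CA, 6 in DCA against CDCA and 0 in the other comparisons. Without counts the depth is unknown, and no counting error can be given for low members such as Ern2 or Derl3.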
